A study of Mus musculus with 6 samples.

Results

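The enzymes that make serine and move its carbon onto folate were followed in mouse WATs. They were taken as the rows of the deposited table named Phgdh, Psat1, Psph, Shmt1, Shmt2, Mthfd1, Mthfd1l, Mthfd2, Mthfd2l and Aldh1l2, and all 10 were found among its 21456 genes. All 10 also had a mean normalized count of at least 10 over the 6 mice, the minimum for the test, which 16157 genes met. The RNA came from 6 mice, 3 Ntsr2 AKO (Adipoq-cre::Ntsr2 flox/flox) and 3 control (Ntsr2 flox/flox), which are numbered 3, 4 and 5 in each group. Both groups fed on a chow diet and carried the floxed alleles, with loxP sites on either side of the whole gene. Cre driven by Adipoq acts in white and brown adipocytes alike, and the other cells of the tissue keep Ntsr2, the receptor of the peptide neurotensin. The fat depot, sex and age of these mice are not given in the sources used here.

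Serine is made from the glycolytic intermediate 3-phosphoglycerate in 3 steps, carried out in turn by PHGDH, PSAT1 and PSPH. Serine hydroxymethyltransferases then split serine into glycine and a carbon unit that is carried by tetrahydrofolate, SHMT1 in the cytosol and SHMT2 in mitochondria. In mitochondria the carbon is oxidized by MTHFD2 or MTHFD2L and released as formate by MTHFD1L or as carbon dioxide by ALDH1L2, and in the cytosol MTHFD1 takes formate up again for the synthesis of purines and thymidylate. Several of these genes are known targets of ATF4, the transcription factor of the amino acid and stress response. In dividing and tumour cells MTHFD2 is abundant, whereas MTHFD2L is the form known from adult tissues.

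Reads of closely related genes can be hard to separate, so the coding sequences of the paralogs were set side by side. Of the 997 coding bases of Mthfd2 and Mthfd2l that could be aligned, 70.0% were identical, and the share was 65.7% of 1423 bases for Shmt1 and Shmt2 and 65.7% of 2741 bases for Mthfd1 and Mthfd1l. The most alike stretch of 60 coding bases of the 2 pairs whose ratios are given further on is printed here, with the bases that differ between the paralogs in capitals (GENCODE M21 transcripts, bases counted from the first base of the start codon).
Mthfd2, coding bases 912 to 971: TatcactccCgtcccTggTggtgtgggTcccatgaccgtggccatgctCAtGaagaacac
Mthfd2l, coding bases 927 to 986: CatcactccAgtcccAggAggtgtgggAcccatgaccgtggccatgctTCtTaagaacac
Shmt1, coding bases 380 to 439: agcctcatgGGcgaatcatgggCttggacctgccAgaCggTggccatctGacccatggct
Shmt2, coding bases 467 to 526: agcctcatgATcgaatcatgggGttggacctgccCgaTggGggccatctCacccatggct
Even there 8 of 60 bases differed between Mthfd2 and Mthfd2l and 7 of 60 between Shmt1 and Shmt2. No stretch of 100 bases was shared within any of the 3 paralog pairs. Transcripts of Phgdh shared 28.1% of their 100-base stretches with 8 other annotated genes, none of which is in the deposited table, so the level of Phgdh depends on how such reads were assigned.

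The genes were placed on GRCm38 with GENCODE M21. On chromosome 10 lie Shmt2 (chr10:127517123-127522444, minus strand), Aldh1l2 (chr10:83487450-83534140, minus strand) and Mthfd1l (chr10:3973118-4167081, plus strand). Mthfd2 is at chr6:83305691-83325908 on the minus strand, and Mthfd2l (chr5:90931117-91021368, plus strand) and Psph (chr5:129765558-129787449, minus strand) share a chromosome. The others are Phgdh at chr3:98313170-98339990, Psat1 at chr19:15904678-15947337 and Shmt1 at chr11:60788104-60811718, all on the minus strand, and Mthfd1 at chr12:76255298-76319803 on the plus strand. The library kit does not mark the strand, and in 5 genes exons overlap those of a gene on the opposite strand. The overlap was 1056 exon bases between Aldh1l2 and D10Wsu102e, 452 between Psph and Cct6a, 184 between Shmt1 and Smcr8, 37 between Mthfd1 and Gm47525 and 32 between Shmt2 and Ndufa4l2. Reads from these bases cannot be told apart.

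Ntsr2 was examined as a check of the labels. Its normalized counts were 83.8, 64.0 and 153 in control mice 3, 4 and 5 and 3.10, 8.29 and 0 in the AKO mice, so the groups did not overlap. The limma log2 fold change was -4.81 (standard error 0.91, adjusted p = 0.499, DESeq2 adjusted p = 1.1e-04). The recovered reads came to 60405373 to 66098226 in control mice and 54085088 to 56268725 in AKO mice. Summed counts of 10 adipocyte markers were 1260450 to 1826690 in control and 1583640 to 1802580 in AKO mice, with 0 of 10 at an unadjusted p under 0.05. Skeletal muscle RNA was uneven, with a sum over 12 marker genes of 1029, 533 and 3077590 in control mice and 1575, 100045 and 220094 in AKO mice. In limma 1 of 16157 genes passed an adjusted p of 0.05 (0.00619%), which was Egr1. In DESeq2 on the recovered reads 220 of 14652 did (1.5%).

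None of the 10 enzymes passed an adjusted p of 0.05 in limma or in DESeq2. At an unadjusted p under 0.05 in limma, 2 enzymes were lower in Ntsr2 AKO mice, Shmt2 and Mthfd2, against 5.27% of all genes tested, and 1 was higher, Mthfd2l, against 3.08% of all genes tested. The same 3 enzymes were those in which the 3 mice of one group all lay beyond the 3 of the other, where the share over all genes tested was 8.16% for lower and 6.82% for higher. All 3 are among the 5 mitochondrial enzymes of the list, but they differed in opposite directions, and the groups overlapped for the others, Mthfd1l and Aldh1l2. The median log2 fold change over the 10 enzymes was -0.050, with 5 enzymes below and 5 above 0, and over all genes tested it was -0.0071, with 51.0% of genes below 0. The replicates behind these p values are the 3 mice of each group. In limma the spread of each gene between mice was pulled toward a trend of spread with level over all genes tested. The limma p values, standard errors and intervals of an enzyme therefore rest partly on the spread of other genes.

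**Figure D1:**
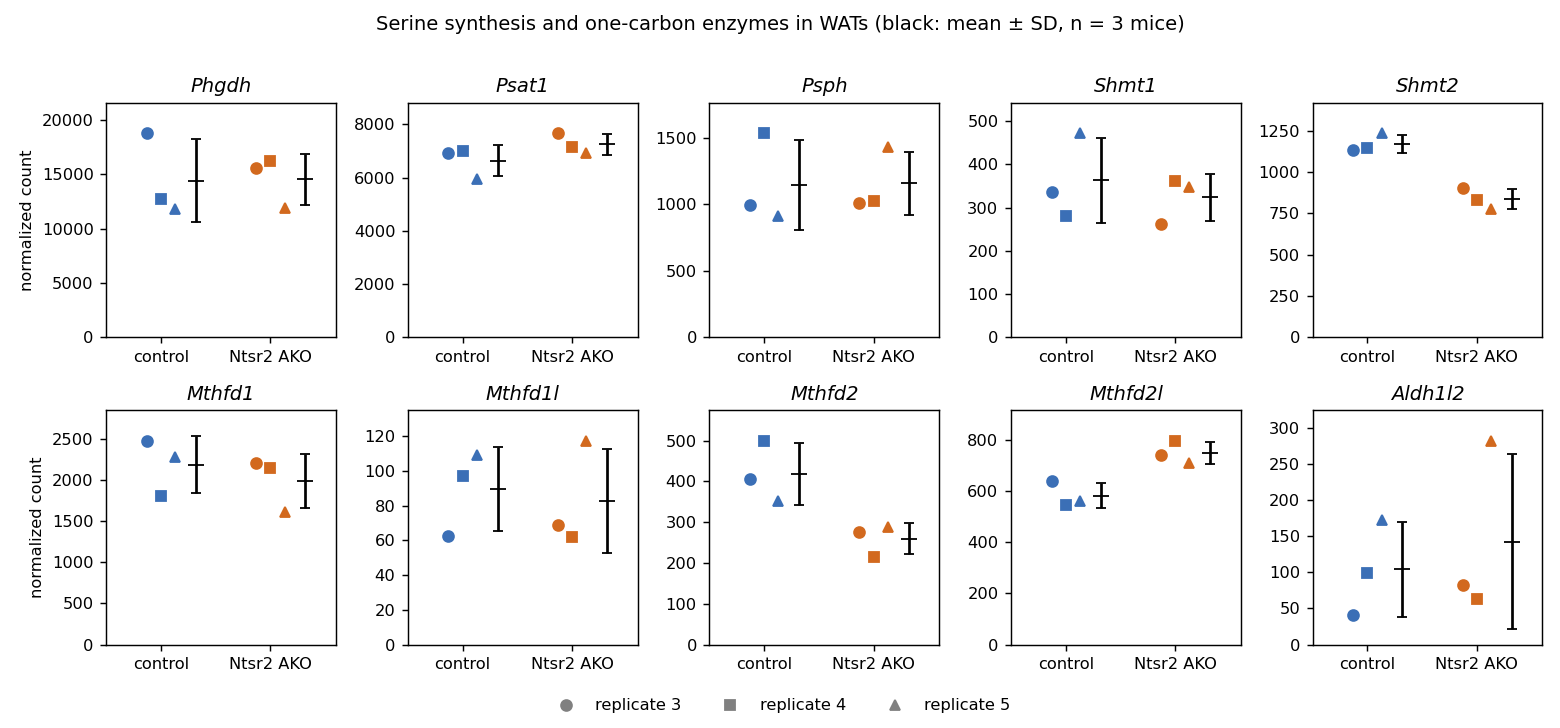
Normalized count of each enzyme (vertical axis, from 0) in 3 control and 3 Ntsr2 AKO mice, with 1 point per mouse, the shape giving the replicate number, and the mean ± SD (n = 3) in black. Shmt2 and Mthfd2 lay lower in all 3 AKO mice than in any control mouse and Mthfd2l lay higher, and the other 7 enzymes overlapped between the groups.

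Shmt2, which splits serine in mitochondria, had normalized counts of 1134, 1148 and 1235 in control mice 3, 4 and 5. In AKO mice 3, 4 and 5 they were 901, 830.2 and 776. The 3 AKO mice were all below the lowest control mouse, and the spread within each group was small, at 1172 ± 54.5 (SD, n = 3 control mice) and 836 ± 62.6 (SD, n = 3 AKO mice). The level in AKO mice was 71.2% of that in control mice (95% interval 57.8% to 87.8%), a log2 fold change of -0.49 (standard error 0.13, limma adjusted p = 0.522). In DESeq2 the adjusted p of Shmt2 was 0.0510, above the threshold, and in edgeR on the same recovered reads it was 0.569. The unadjusted p was under 0.05 in all 16 other fits planned for it, with log2 fold changes of -0.54 to -0.44. Tissue RNA does not separate fewer cells of a type from less RNA in each cell, here or for the other enzymes.

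Mthfd2 takes the carbon that SHMT2 loads onto folate through its next oxidation. Its normalized counts were 405, 499 and 351 in control mice and 276, 216 and 288 in AKO mice. The groups were again separate, the highest AKO mouse (replicate 5) lying below the lowest control mouse (also replicate 5). The means were 418 ± 75.0 (SD, n = 3) and 259.9 ± 38.9 (SD, n = 3). The AKO level of Mthfd2 was 62.4% of control (95% interval 43.5% to 89.4%), and the log2 fold change was -0.68 (standard error 0.22, limma adjusted p = 0.545). The call at an unadjusted p under 0.05 was lost without control 4 (log2 fold change -0.55) and without AKO 4 (-0.55), the mice with the highest and the lowest Mthfd2, and the DESeq2 adjusted p was 0.199.

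Mthfd2l catalyses the same mitochondrial step as Mthfd2 and differed in the opposite direction. Control mice had normalized counts of 639, 546 and 563, and AKO mice 743, 797 and 712. Every AKO mouse was above every control mouse, with means of 583 ± 49.4 (SD, n = 3 control mice) and 751 ± 42.8 (SD, n = 3 AKO mice). The AKO level of Mthfd2l was 129% of control (95% interval 102% to 163%), a log2 fold change of 0.37 (standard error 0.14, limma adjusted p = 0.575). Of the 3 separated enzymes it was the least secure. Its unadjusted p stayed under 0.05 in 9 of 16 other fits, and of the 6 fits that left out a mouse only the one without control 3 kept it there, although the log2 fold change stayed between 0.32 and 0.44.

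Skeletal muscle RNA was high in control 5 and present in AKO 4 and 5. With a skeletal muscle score as a covariate the log2 fold changes were -0.49 for Shmt2, -0.66 for Mthfd2 and 0.37 for Mthfd2l, and Mthfd2l no longer had an unadjusted p under 0.05. In the 3 mice with little muscle RNA (control 3, control 4 and AKO 3) they were -0.34, -0.70 and 0.33, with 1 AKO mouse and hence no spread of its own. Among markers of other cell types, summed macrophage, lymphocyte, endothelial, fibroblast and Schwann cell genes overlapped between the groups. So did the sums of 6 brown and beige adipocyte markers (3813 to 8566 in control, 7095 to 11615 in AKO mice) and of 6 mesothelial markers (165 to 470 and 147 to 177), but 1 gene of each list did not, Cidea being higher in all 3 AKO mice (log2 fold change 0.77) and Krt19 lower (-1.64). The recovered reads were fewer in every AKO mouse than in any control mouse. The part of muscle RNA, of the other cell types and of the number of reads in the levels of Shmt2, Mthfd2 and Mthfd2l was not tested.

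**Figure D2:**
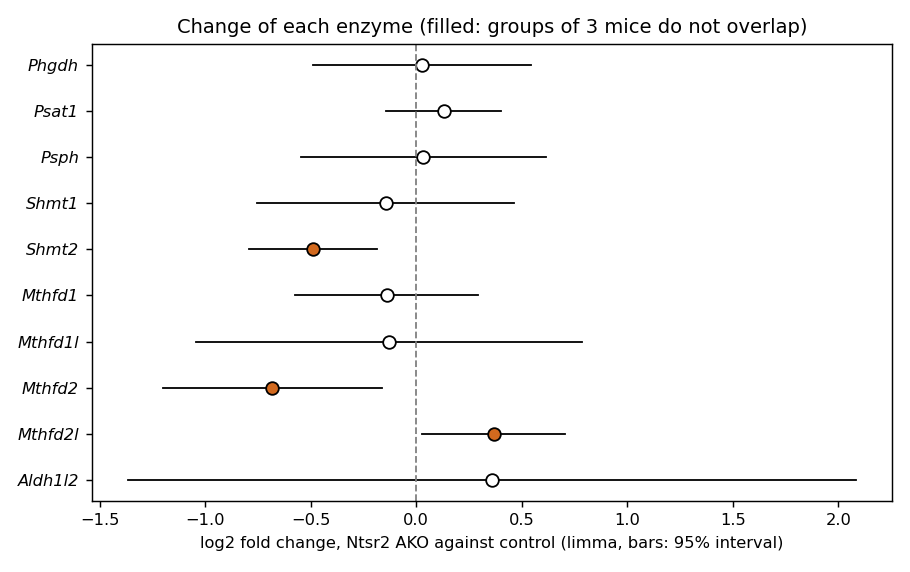
Log2 fold change of each enzyme in Ntsr2 AKO against control mice (horizontal axis, limma on log2 of the normalized count + 1), with lines for the 95% interval and filled points for enzymes whose groups of 3 mice do not overlap. The intervals of Shmt2 (-0.79 to -0.19) and Mthfd2 (-1.20 to -0.16) lie below 0 and that of Mthfd2l (0.03 to 0.71) above it, before adjustment over all genes, and that of Aldh1l2 is the widest at -1.37 to 2.08.

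A ratio of 2 genes within a mouse does not depend on the scaling of that mouse. The log2 ratio of Mthfd2 to Mthfd2l was -0.66, -0.13 and -0.68 in control mice and -1.43, -1.88 and -1.30 in AKO mice. The 3 AKO mice were all below the 3 control mice, with means of -0.49 ± 0.31 (SD, n = 3) and -1.54 ± 0.30 (SD, n = 3). The difference was -1.05, so the ratio in AKO mice was 48.3% of that in control mice. In a two-sided exact permutation test the p was 0.10, which is the smallest that 3 against 3 mice can give (0.30 after adjustment over the 3 ratios). The difference had the same sign without any one mouse. As Mthfd2 was lower and Mthfd2l higher in every AKO mouse, the separation of the ratio, its p and its sign were already fixed. They add nothing to the separation of the 2 genes.

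The ratio of mitochondrial Shmt2 to cytosolic Shmt1 varied more between mice. On the log2 scale it was 1.75, 2.03 and 1.39 in control mice and 1.78, 1.20 and 1.16 in AKO mice. AKO 3 lay among the control mice, and the difference of -0.34 had an exact two-sided permutation p of 0.30 (adjusted 0.45). For Mthfd1l to Mthfd1, whose products run the same formate step in mitochondria and cytosol, the difference was 0.010 with an exact permutation p of 1, and it depended on single mice, at -0.32 without control 3 and -0.41 without AKO 5.

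**Figure D3:**
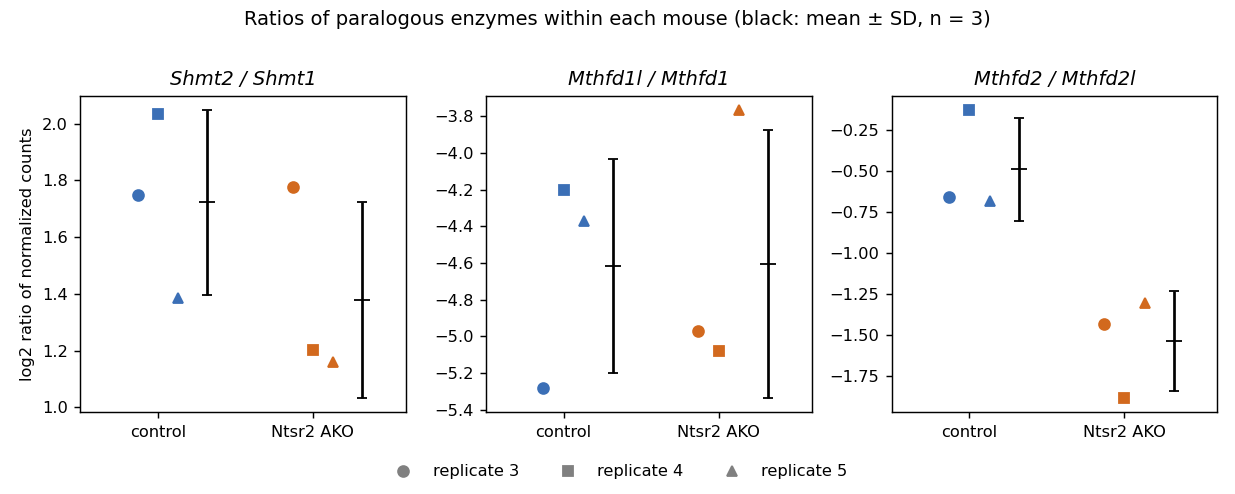
Log2 ratio of the normalized counts (+ 1) of 3 pairs of paralogous enzymes in each mouse (vertical axis, not from 0), by group, with the mean ± SD (n = 3) in black. Mthfd2 to Mthfd2l is lower in the 3 AKO mice (-1.88 to -1.30) than in the 3 control mice (-0.68 to -0.13), and the other pairs overlap.

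The 3 enzymes of serine synthesis had closely similar means in the groups. Phgdh, which catalyses the committed first step, had normalized counts of 18776, 12745 and 11768 in control mice and 15543, 16231 and 11857 in AKO mice. The groups overlapped over almost their whole range, with means of 14430 ± 3795 (SD, n = 3) and 14544 ± 2352 (SD, n = 3). The log2 fold change of Phgdh was 0.029, and the 95% interval of the level in AKO mice ran from 71.3% to 146% of control (limma adjusted p = 0.978). The values of these mice leave room for any difference within those bounds, which are not a limit of detection.

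Psat1, the transaminase that follows, was the most even of the enzymes from mouse to mouse. Its normalized counts of 6935, 6993 and 5961 in control mice overlapped with 7661, 7145 and 6926 in AKO mice, and the highest mouse was 1.29 times the lowest. The AKO level was 109% of control (95% interval 90.6% to 132%, limma adjusted p = 0.775). Psph, the phosphatase of the last step, had 992, 1536 and 914 in control mice and 1014, 1029 and 1432 in AKO mice, so that 1 mouse of each group stood above the other 4 mice. Its AKO level was 102% of control (95% interval 68.5% to 153%, limma adjusted p = 0.977). Exons of Psph overlap those of Cct6a, a chaperonin subunit gene with a log2 fold change of -0.50 whose groups did not overlap, and reads of the shared exon bases may count for either gene.

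Both cytosolic folate enzymes overlapped between the groups. Shmt1 had normalized counts of 337, 280 and 472 in control mice and 262, 361 and 347 in AKO mice, and its log2 fold change of -0.15 (standard error 0.26) became 0.061 without control 5, the highest mouse. Mthfd1, which carries 3 activities on a single protein, had 2470.2, 1798 and 2281 in control mice and 2199, 2139 and 1610.2 in AKO mice. The lowest mouse of each group, control 4 and AKO 5, lay well below the other 4. Its AKO level was 90.8% of control (95% interval 67.3% to 122%, limma adjusted p = 0.843), near the 90.4% of Shmt1 (59.3% to 138%, limma adjusted p = 0.892).

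The remaining mitochondrial enzymes, which release the carbon as formate or as carbon dioxide, varied widely within both groups. Mthfd1l had normalized counts of 62.6, 97.0 and 109 in control mice and 69.2, 62.2 and 117 in AKO mice. Aldh1l2 had 40.5, 99.0 and 173 in control mice and 82.6, 63.2 and 282 in AKO mice, so the highest mouse was 6.97 times the lowest. The AKO level of Mthfd1l was 91.4% of control (95% interval 48.5% to 172%, limma adjusted p = 0.940). For Aldh1l2 it was 128% (38.8% to 424%, limma adjusted p = 0.906), and without AKO 5 its log2 fold change turned from 0.36 to -0.29. Of the 100-base stretches of Aldh1l2 transcripts 12.4% are shared with D10Wsu102e, which had 832 to 1623 normalized counts, so part of the reads of Aldh1l2 may belong to that gene.

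Mthfd1l, Aldh1l2 and Phgdh divided the 6 mice in the same way, across genotype. Control 3, AKO 3 and AKO 4 had the 3 lowest values of Mthfd1l and of Aldh1l2 and the 3 highest values of Phgdh. Control 4, control 5 and AKO 5 had the reverse. The summed count of 7 fibroblast and progenitor markers followed that division, at 163982 in control 3, 205852 in AKO 4 and 218344 in AKO 3, against 280311 in control 5, 306972 in control 4 and 538897 in AKO 5. The order was noticed after the values were seen, and the part of stromal RNA in it was not tested.

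Levels were compared between enzymes per kb of the longest coding transcript. Over the 6 mice the mean was highest for Phgdh, at 7653 normalized counts per kb (6217 to 9919 between mice), followed by Psat1 at 2651 (2278 to 2927). Neither overlapped with its neighbours in the order. Then came Psph at 665 (528 to 886), Mthfd1 at 643 (497 to 762), Shmt2 at 439 (339 to 539) and Mthfd2l at 309 (253 to 369). Psph overlapped with Mthfd1, Mthfd1 with Shmt2, and Shmt2 with Mthfd2l. Mthfd2 at 163 (103 to 239) and Shmt1 at 120.04 (91.7 to 165) overlapped with each other and, by this length, lay below Mthfd2l in every mouse. Lowest were Mthfd1l at 23.4 (16.9 to 31.8) and Aldh1l2 at 20.5 (6.72 to 46.8), which overlapped with each other. The mean per kb of Phgdh was 374 times that of Aldh1l2, so that the enzymes of serine synthesis stood far above the mitochondrial enzymes of carbon release.

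**Figure D4:**
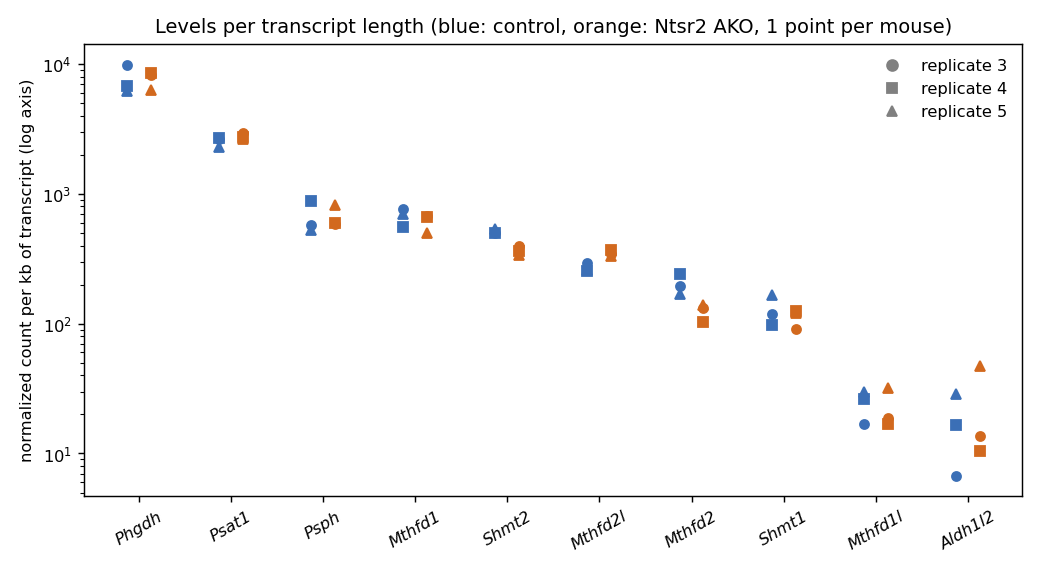
Normalized count per kb of the longest coding transcript (vertical log axis) of the 10 enzymes, in order of their mean over 6 mice, with 1 point per mouse, control mice in blue and Ntsr2 AKO mice in orange. Phgdh (6217 to 9919) and Psat1 (2278 to 2927) stand above the others, and Mthfd1l and Aldh1l2 lie lowest, at under 50 per kb in every mouse.

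Per kb of the longest coding transcript (2085 bases for Mthfd2, 2159 for Mthfd2l), Mthfd2l exceeded Mthfd2 in all 6 mice. That order depends on the length chosen. Merged over all annotated exons the lengths are 3487 and 6645 bases, and the annotation used for counting is not given. Which of the 2 is higher is therefore not settled. By the longest coding transcript the ratio of Mthfd2 to Mthfd2l was 0.657, 0.947 and 0.646 in control mice and 0.384, 0.280 and 0.419 in AKO mice. On that scale control 4 came nearest to equal levels of both, and AKO 4 was farthest from them. Mitochondrial Shmt2 exceeded Shmt1 in every mouse, by 3.27 to 5.13 times in control and 2.79 to 4.29 times in AKO mice, whereas in the formate-folate ligases the cytosolic form prevailed, with 15.6 to 44.9 times more Mthfd1 than Mthfd1l per kb.

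As Shmt2 and Mthfd2 both lay lower in AKO mice, the sequence before their start sites was read from RefSeq (GRCm38.p6). Each line gives 120 bases up to the start, 5′ to 3′ on the minus strand, on which both genes lie. Capitals mark TGCGCATGC, the core bound by NRF1, in Shmt2 and CCAAT boxes in Mthfd2, on either strand.
Shmt2, chr10:127522445-127522564: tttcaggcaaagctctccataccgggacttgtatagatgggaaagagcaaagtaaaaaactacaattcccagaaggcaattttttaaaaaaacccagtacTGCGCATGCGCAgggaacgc
Mthfd2, chr6:83317605-83317724: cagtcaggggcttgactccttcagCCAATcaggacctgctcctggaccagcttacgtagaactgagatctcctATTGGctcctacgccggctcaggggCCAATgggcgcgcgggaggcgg
The Shmt2 stretch holds 2 overlapping matches to the NRF1 core, 1 on each strand. Such a match is in 0.931% of all stretches of 120 bases before a start. Among all 32851 RefSeq windows of 300 bases (250 before to 50 after a start) it is in 1.52%. The Mthfd2 stretch holds 3 CCAAT boxes. Of all stretches of 120 bases before a start 21.3% hold at least 1 such box and 0.761% hold at least 3, a number set by the count seen in Mthfd2. The Shmt2 stretch held 0 CCAAT boxes and the Mthfd2 stretch 0 matches to the NRF1 core, and the same stretch before Mthfd2l held 0 of either. CCAAT was also within 120 bases before the start in Phgdh, Psat1, Psph, Shmt1 and Mthfd1, whose groups overlapped. A link between these motifs and the levels was not tested. The stretch of Mthfd2 lies inside the gene as GENCODE draws it, since a longer annotated transcript starts further upstream. That of Mthfd2l (chr5:90931076-90931195) runs past the GENCODE start of its gene at 90931117. The windows of Psat1 and Shmt1 also lie inside their genes in GENCODE.

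Windows were found for 9 of the 10 enzymes, 10 windows in all, and none was given for Aldh1l2. Both strands were searched for TGATGCAA, a form of the element bound by ATF4 with its partners, and for the same element with 1 free base, TGATGNAA. These are in 0.895% and 3.97% of all windows and in 0 windows of the enzymes. The cAMP response element TGACGTCA (1.79% of all windows) and the E-box CACGTG (7.15%) were also in 0 windows of the enzymes. The other motifs were searched after these gave no match. CCAAT was in windows of 6 enzymes (Phgdh, Psat1, Psph, Shmt1, Mthfd1 and Mthfd2), against 37.4% of all windows, and the GC box GGGCGG in those of 6, against 35.7%. TGACG, contained in TGACGTCA, was in those of 3 enzymes (20.8% of all windows), and the NRF1 core in that of Shmt2 alone. A missing match says only that these letters are not in these 300 bases.

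The neighbouring pathways were described from lists of genes in the same fit, and 0 genes of any list passed the adjusted p in limma. In the folate cycle, which supplies the carrier, 6 of 12 genes were lower and 6 higher. Fpgs, which keeps folate in the cell by adding glutamate, had a log2 fold change of -0.39, and Mtfmt, which formylates the initiator tRNA of mitochondria, 0.34. In glycine cleavage and glycine enzymes 0 of 6 genes reached an unadjusted p under 0.05, and the log2 fold changes were 0.60 for Amt, 0.84 for Gnmt and -0.22 for Gldc.

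Serine transport and use held 13 lower and 6 higher of 19 genes, of which 2 were lower at an unadjusted p under 0.05, against 5.27% of all genes tested. Slc38a1, an uptake carrier of neutral amino acids, had 198, 190 and 126 in control and 98.1, 86.0 and 96.1 in AKO mice, without overlap (log2 fold change -0.84). Sptlc2, a subunit of the transferase that joins serine to palmitate, had a log2 fold change of -0.30 and Pisd, which makes phosphatidylethanolamine from phosphatidylserine, -0.24. In the methionine cycle and transsulfuration 10 of 15 genes were lower and 5 higher, with 1 lower at that p, the creatine synthesis enzyme Gamt (-0.37), beside values of 0.58 for Cth and 0.54 for Chdh. Purine synthesis, which takes up formyl groups from folate, was lower in 11 of 13 genes and higher in 2, with a median of -0.26, where 51.0% of all genes were lower, and 1 gene was lower at an unadjusted p under 0.05 (5.27% of all genes). This was Gart, which uses formyl-folate, at -0.34, and Adsl (-0.39) and Atic (-0.26), the other formyl-folate enzyme, also had no overlap between groups, so 3 of 13 genes were lower without overlap, against 8.16% of all genes tested.

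Of the ATF4 list, with ATF4 itself and amino acid genes that it is known to drive, 13 of 18 genes were lower and 5 higher, with a median of -0.36, where 51.0% of all genes were lower. At an unadjusted p under 0.05, 5 were lower and 0 higher, against 5.27% and 3.08% of all genes tested. Without overlap between the groups 2 were lower, Slc7a5 and Atf4, and 1 was higher, Gpt2 (log2 fold change 0.083). The shares over all genes tested were 8.16% and 6.82%. Slc7a5, the large neutral amino acid carrier, had 289, 474 and 388 in control and 155, 93.3 and 144 in AKO mice (log2 fold change -1.55, DESeq2 adjusted p = 0.00119), Atf4 had a log2 fold change of -0.49 and Slc3a2, the partner chain of SLC7A5, -0.58. The other 2 at that p were the arginine carrier Slc7a1 (-0.83) and the cystine carrier Slc7a11, which had 58.9, 16.5 and 25.9 in control and 16.5, 0 and 0 in AKO mice. The groups of Slc3a2, Slc7a1 and Slc7a11 overlapped, and the unadjusted DESeq2 p of Slc7a11 was 0.117. In glycolysis around 3-phosphoglycerate 6 of 8 genes were lower and 0 reached an unadjusted p under 0.05. Gapdh, Pgk1 and Bpgm were highest in control 5, the mouse with most muscle RNA, with log2 fold changes of -0.57, -0.40 and -0.23. In the list of proliferation genes 8 of 15 were lower and 7 higher, with 0 at that p and values of -0.13 for Pcna, -0.27 for Mcm2 and -0.21 for Mcm6.

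**Figure D5:**
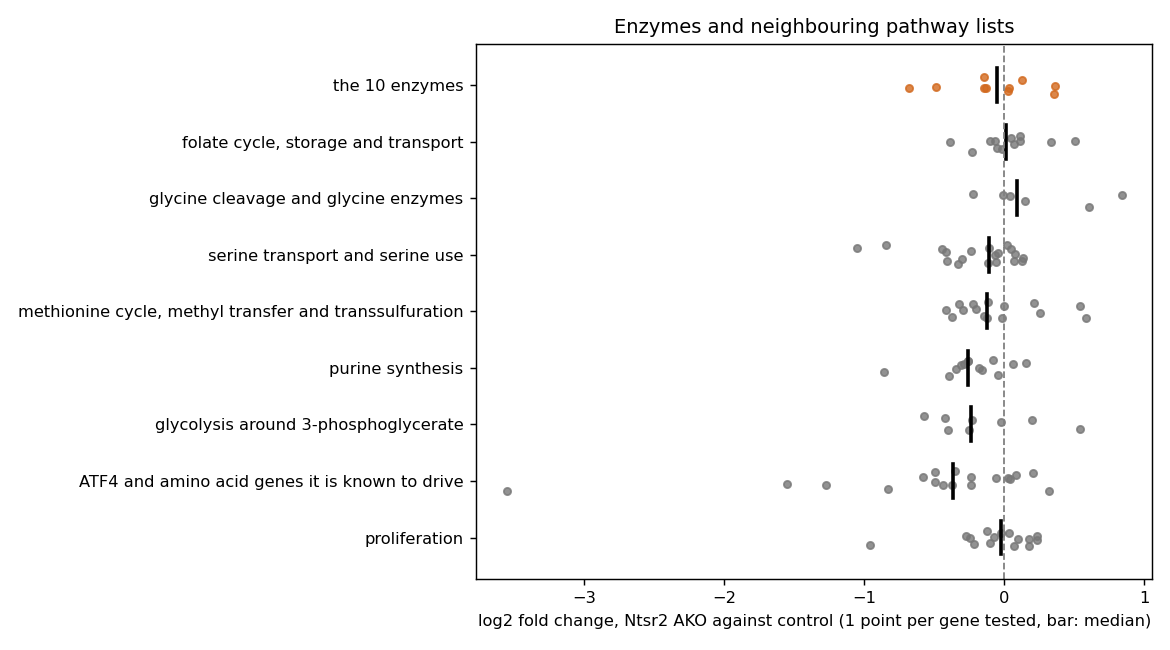
Log2 fold change in Ntsr2 AKO against control mice (horizontal axis, limma) of the 10 enzymes in orange and of the genes of 8 neighbouring lists in grey, with 1 point per gene tested and a bar at the median. The median is -0.050 for the enzymes, -0.36 for the ATF4 list, -0.26 for purine synthesis and 0.017 for the folate cycle.

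The mean z-score of the 10 enzymes stayed between -0.15 and 0.09 in the 6 mice, since enzymes that lay higher in a mouse were set off by others that lay lower. It was 0.091, 0.067 and 0.052 in control and -0.082, -0.154 and 0.025 in AKO mice, small differences that scaling magnifies. After scaling of that mean profile, the genes nearest to it by root-mean-square distance over 6 mice were Trappc13_2, as the table spells it (0.140), Anxa1 (0.151), Snx12 (0.192), Etv4 (0.209) and Egr2 (0.213). All of these had a negative log2 fold change (-1.79 to -0.10), as the scaled profile was lower in AKO mice.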

How the data were processed

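RNA-seq values of 6 mice were used. Per the labels and the methods, the authors extracted RNA with TRIzol, made libraries with the NEBNext Ultra kit, trimmed reads with Trimmomatic, aligned them with Hisat2, counted them with StringTie and used DESeq2. The submitters' processing notes name HISAT2, StringTie and mm10. The annotation is not given in the sources used here. They deposited a signal table of normalized counts, read counts divided by a size factor per mouse. Division by the step of the low values gave whole reads for 100% of values (tolerance 0.001), 54085088 to 66098226 per mouse. This depth leaves little counting error for the abundant enzymes, and precision is limited by the 3 mice per group. For Mthfd1l, Aldh1l2 and Ntsr2 counting error adds to the spread.

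Genes with a mean of at least 10 were tested as log2(normalized count + 1) in limma 3.58.1 (R 4.3.3, lmFit, eBayes with trend, no covariate) with Benjamini-Hochberg adjustment over 16157 genes and a threshold of 0.05. Fold changes on this scale understate those of low genes. The paralog ratios were compared by exact permutation. Alternatives were other pseudocounts (0.1 and 5), filters (none and 50), quantile normalization, no trend, a replicate block, a muscle covariate, edgeR 4.0.16 and DESeq2 1.42.0 on the recovered reads, and omission of each mouse. The fit with 3 mice was added after the data were seen. On simulated counts for 16157 genes limma called 48% of genes changed by 2 and 4% of those changed by 1 on the log2 scale. It also called 5 unchanged genes in that set, and 0 in a set in which no gene was changed. The 10 enzymes and the lists were chosen with earlier results of these data known. Named genes are the enzymes, Ntsr2, the 3 genes of each list with the smallest p and the 5 nearest profiles, except 1 gene that is not reported here. Egr1, Cct6a, D10Wsu102e, Cidea, Krt19, Slc7a1, Slc7a11 and Gpt2 were named after their values were seen.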

Additional observations from a re-analysis of the deposited data

How the results depend on the processing

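Over 16 alternative fits Shmt2, Mthfd2, Mthfd2l and Psat1 kept the sign of their log2 fold change, and no enzyme passed the adjusted p in limma, edgeR or DESeq2. Of all genes, 1 passed it in limma, 220 in DESeq2, and 0 in edgeR (1323 at an unadjusted p under 0.05), without the filter, without the trend, with the muscle covariate and without any one mouse. The same-numbered mice had correlations of 0.45, -0.24 and 0.41 across genes and were not taken as pairs. With the replicate block 0 genes passed and 0 enzymes were higher at an unadjusted p under 0.05, as with the muscle covariate, against 1. The number of enzymes at that p ranged from 1 to 2 for lower and from 0 to 1 for higher when a mouse was left out. The number without overlap that were higher was 2 after quantile normalization and 1 to 2 without a mouse, and the number that were lower was 3 without control 4 and in the 3 mice with little muscle RNA, against 2. The median log2 fold change of the enzymes was 0.024 after quantile normalization, where that of all genes was 0.045, and -0.17 to -0.0053 without a mouse. In the 3 mice with little muscle RNA, where the lone AKO mouse is assumed to vary like the controls, 0 genes passed, 0 enzymes were lower and 0 higher at an unadjusted p under 0.05, 2 were higher without overlap, the median was -0.082, and Psph (-0.28) and Mthfd1 (0.061) changed sign.

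Without a mouse, log2 fold changes of mixed sign ranged from -0.10 to 0.23 for Phgdh, -0.13 to 0.26 for Psph, -0.32 to 0.061 for Shmt1, -0.27 to 0.0032 for Mthfd1, -0.41 to 0.046 for Mthfd1l and -0.29 to 0.84 for Aldh1l2. The Mthfd1l to Mthfd1 ratio difference also changed sign, ranging from -0.41 (without AKO 5) to 0.25 (without AKO 4). The log2 fold change of Ntsr2 passed the adjusted p in DESeq2 alone (-4.72). The causes were not tested. With 3 mice a group, a difference such as that of Mthfd1 or Psph could not be told from none.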
